A study of Mus musculus with 31 samples.

Results

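The retinas of P14 +/+;CrxpNrl mice were compared with those of P14 +/+ mice, gene by gene. P14 is postnatal day 14, +/+ is the wild-type genotype, and CrxpNrl is a transgene that places the rod transcription factor gene Nrl under the promoter of Crx, a gene active in both rods and cones and in their precursors. The samples were chosen by their labels: 4 transgenic and 4 +/+ mice, 8 of the 31 samples of the series. Each sample was total RNA from both retinas of 1 mouse, hybridised to an Affymetrix mouse expression array. Groups that serve for comparison below are P28 +/+ (4 mice) and P28 +/+;CrxpNrl (3 mice) at postnatal day 28, and P14 Rorb-/- and P14 Rorb-/-;CrxpNrl (4 mice each), which lack the nuclear receptor gene Rorb. The labels give neither the sex of the mice nor the number of founder lines of the transgene, nor any treatment. The whole retina was measured, so fewer cells of a type and less RNA per cell cannot be told apart.

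Photoreceptor precursors of the mouse retina become rods or cones, and Nrl, acting with the orphan nuclear receptor Nr2e3, is known to direct them to the rod fate and to repress cone genes. Rods serve vision in dim light and make up most of the cells of the mouse retina, while cones serve daylight vision through short- and medium-wavelength opsins. Both cell types turn light into a fall of cyclic GMP through an opsin, a transducin and a phosphodiesterase, and each uses its own versions of most of these proteins.

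The values are log2 signals made with RMA (robust multi-array average), and a difference is the mean of the transgenic mice minus the mean of the +/+ mice on that log2 scale, so that -1 is a 2-fold lower signal. Differences are given ± SE from a limma fit, with Benjamini-Hochberg adjusted p over 18193 genes. A gene is said to have fallen or risen where its adjusted p was under 0.05, and is counted as changed where the difference was also at least 2-fold. The 8 arrays were alike in scale, with medians of 5.85 to 5.88 and lower quartiles of 3.99 to 4.05, and correlated pairwise at 0.992 to 0.997. Rod transcripts were high in all 8 retinas (mean of the rod phototransduction list 12.36 to 12.68), and amacrine cell transcripts were read at 8.32 to 8.58. The difference of the median gene was 0.0062.

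An array of the transgenic group stood apart from the rest in the genes described below. Transgenic replicate 2 read Xist, the RNA of the inactive X chromosome, at 8.03, while the other arrays of the series fell into 12 between 12.61 and 13.16 and 18 between 4.71 and 5.40. Its mean over the Y-linked genes Eif2s3y, Kdm5d and Uty was 7.97, within the 7.71 to 8.40 of the arrays with low Xist and above the 3.11 to 3.57 of those with high Xist. Of the other 7 mice, replicate 2 of the +/+ group and replicates 1 and 4 of the transgenic group had high Xist. Over all genes transgenic replicate 2 correlated with its group at a mean of 0.9956, no lower than the other 3 transgenic arrays (0.9949 to 0.9956). Its cone transcripts were known to be partly kept when the comparison was drawn up, so its position in them is a description. Values are given with this array, and also without it where leaving it out changed a call or moved a called difference by over 1.5 times. What set it apart was not tested.

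In all, 15 genes fell at least 2-fold with the transgene, 0.0824% of the genes tested, and 0 genes rose at least 2-fold (0%) in the limma fit. At an unadjusted p under 0.05 there were 1319 genes, of which 3 were at least 2-fold higher. With no fold requirement 20 genes fell (0.11%) and 3 rose (0.0165%). Of the 15 genes, 11 belong to the lists of cone phototransduction genes and other cone genes, and the other 4 are Tecrl, Ccl9, Klhl4 and Gzmm. The lists were chosen with earlier results of these data known, so this count and the shares of the lists below are descriptions. In each of the 15 the highest transgenic mouse lay below the lowest +/+ mouse, as it did in 480 of all genes (2.64%). Without transgenic replicate 2, 16 genes fell at least 2-fold (0.0879%) and 0 rose, and 14 of the 15 were among them: Ccl9 left the set, at an adjusted p of 0.0503, and Otop3 and Socs3 joined it.

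**Figure D1:**
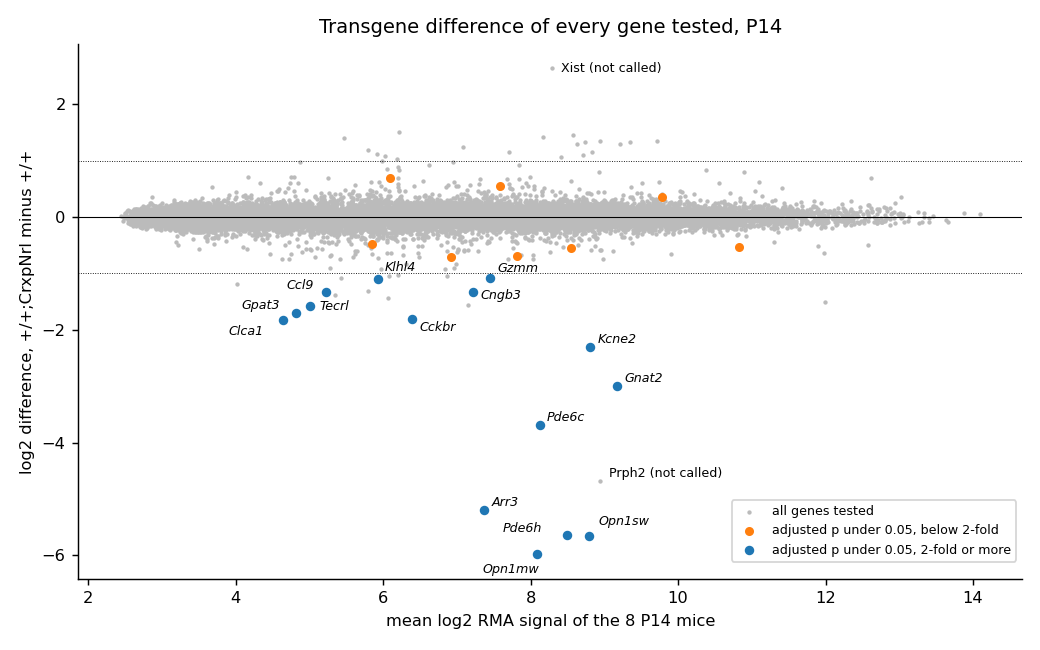
The log2 difference between P14 +/+;CrxpNrl and +/+ retinas (vertical axis) of each of 18193 genes is plotted against its mean log2 RMA signal over the 8 mice (horizontal axis), with dotted lines at 2-fold. The 15 genes with an adjusted p under 0.05 and at least 2-fold (blue) all lie below zero, from Opn1mw at -5.98 to Gzmm at -1.07, and the largest differences without a call were those of Prph2 (-4.68) and the sex-linked Xist (2.64).

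The sequences just upstream of the cone opsin genes, whose transcripts were among those that differed most between the groups, and of Gnat2 are shown as context for genes that moved together. Each is the 250 bases before the RefSeq transcription start, in build GRCm38.p6 and in the direction of transcription. Opn1sw lies on the minus strand (chr6:29380514-29380763), Opn1mw on the plus strand (chrX:74127216-74127465) and Gnat2 on the plus strand (chr3:108092816-108093065). Capitals mark matches, on either strand, to TAATCC, the core of the site of Crx and Otx2, to TGCTGA, the core of one arm of the Nrl site, or to AGGTCA, the core site of a nuclear receptor monomer.
Opn1sw: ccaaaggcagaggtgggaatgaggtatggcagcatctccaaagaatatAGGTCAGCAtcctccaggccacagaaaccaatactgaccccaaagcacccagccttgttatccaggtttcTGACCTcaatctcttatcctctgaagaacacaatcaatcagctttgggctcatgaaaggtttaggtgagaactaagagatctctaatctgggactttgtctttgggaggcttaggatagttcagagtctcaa
Opn1mw: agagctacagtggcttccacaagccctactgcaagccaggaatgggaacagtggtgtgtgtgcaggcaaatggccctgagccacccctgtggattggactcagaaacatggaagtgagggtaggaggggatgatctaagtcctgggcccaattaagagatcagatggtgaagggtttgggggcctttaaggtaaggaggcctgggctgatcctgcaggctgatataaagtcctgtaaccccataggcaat
Gnat2: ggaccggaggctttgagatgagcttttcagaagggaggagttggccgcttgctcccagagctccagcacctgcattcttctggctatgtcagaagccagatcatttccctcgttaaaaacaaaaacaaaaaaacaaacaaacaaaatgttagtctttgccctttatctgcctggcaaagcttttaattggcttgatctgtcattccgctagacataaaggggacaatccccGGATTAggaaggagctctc
The Opn1sw window held AGGTCA at 202 and, on the other strand, TGCTGA at 199 bases before the start, which overlap, and a second AGGTCA on the other strand at 132 bases. The Gnat2 window held TAATCC on the other strand at 19 bases before the start, and the Opn1mw window held none of the 3. Of the 15 genes, 12 had a window in the RefSeq table. Taking the first window of each, 1 held TAATCC (Gnat2), 3 held TGCTGA (Opn1sw, Klhl4 and Gzmm) and 2 held AGGTCA (Opn1sw and Klhl4). Over all 32851 windows of this length the shares with a match were 6.3%, 16.1% and 14.0%. A match is a run of letters and not a measured site, and a window without one says nothing about the factor.

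Both cone opsins fell, and with Pde6h they had the largest of the falls that passed, an order among the 3 that changed when replicate 2 was left out. Opn1mw, the medium-wavelength opsin, read 11.19, 10.90, 11.15 and 11.08 in +/+ replicates 1 to 4 and 5.04, 6.18, 4.54 and 4.64 in transgenic replicates 1 to 4. All 4 transgenic mice were low, with replicate 2 the highest of them, and the groups did not overlap. Opn1mw fell by 5.98 ± 0.25 (adjusted p = 1.25e-15), and by 6.34 ± 0.21 without replicate 2. Opn1sw, the short-wavelength opsin, read 11.42, 11.67, 11.64 and 11.76 in the +/+ mice, against 4.80, 8.96, 5.18 and 4.94 in the transgenic mice. Here replicate 2 lay between the other 3 transgenic mice and the +/+ mice, with no overlap of the groups. Opn1sw fell by 5.65 ± 0.56 (adjusted p = 1.9e-07), and by 6.65 ± 0.34 without replicate 2. Its dimmer second probe set differed by -2.29.

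The cone transducin and phosphodiesterase fell too. Gnat2, the cone transducin alpha subunit that carries the opsin's signal, read 10.73, 10.59, 10.65 and 10.69 in the +/+ mice, against 7.30, 8.74, 7.17 and 7.49 in the transgenic mice. Replicate 2 was again the highest transgenic mouse and still below every +/+ mouse, and Gnat2 fell by 2.99 ± 0.19 (adjusted p = 2.28e-11). Pde6c, the catalytic subunit of the cone phosphodiesterase, read 10.11, 10.11, 9.60 and 10.05 in the +/+ mice, against 5.90, 7.20, 6.01 and 6.02 in the transgenic mice. Transgenic replicates 1, 3 and 4 lay within a narrow range, and replicate 2 above it. Pde6c fell by 3.69 ± 0.27 (adjusted p = 3.3e-10). Pde6h, the inhibitory subunit of the same enzyme, read 11.51, 11.18, 11.28 and 11.30 in the +/+ mice against 4.82, 8.25, 4.93 and 4.70. The transgenic replicates other than replicate 2 stood close together and far below the +/+ mice. Pde6h fell by 5.64 ± 0.49 (adjusted p = 1.23e-08), its other probe set differed by -5.63, and without replicate 2 the difference was -6.50 ± 0.31.

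Arr3, the cone arrestin that quenches the activated opsin, read 10.16, 9.74, 9.97 and 10.02 in the +/+ mice, against 3.51, 7.08, 4.49 and 4.02 in the transgenic mice. All transgenic mice were below the +/+ mice, and they varied among themselves more than the +/+ mice did, with an SD of 1.59 against 0.17. Arr3 fell by 5.19 ± 0.43 (adjusted p = 6.48e-09), and by 5.96 ± 0.27 without replicate 2. Its other probe sets differed by -4.82 and -1.61. Cngb3, which forms the cation channel of cones with Cnga3, read 8.05, 7.98, 7.67 and 7.84 in the +/+ mice, against 6.27, 7.18, 6.38 and 6.41 in the transgenic mice. It fell by 1.33 ± 0.22 (adjusted p = 0.00298), with replicate 2 once more nearest to the +/+ mice.

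The other 3 measured phototransduction genes of cones did not pass the test at P14. Gnb3, the transducin beta subunit of cones, which bipolar cells also express, read 11.04 to 11.15 in the +/+ mice and 10.68 to 10.84 in the transgenic mice. Its difference of -0.34 ± 0.076 was small and the groups did not overlap (adjusted p = 0.0678). Gnb3 did pass in 3 of the alternatives described below (adjusted p 0.00336 to 0.0499). Gngt2, the transducin gamma subunit of cones, read 5.14 to 5.35 against 4.57 to 4.90, a difference of -0.56 ± 0.21 (adjusted p = 0.532). Slc24a2, a sodium-calcium-potassium exchanger of cones and other neurons, overlapped between the groups at 7.21 to 7.48 and 7.41 to 7.62. Of the 10 measured members of the list, 7 thus fell and 0 rose, beside 0.11% and 0.0165% of all genes. In 9 the groups did not overlap with the transgenic mice lower, beside 2.64% of all genes, and the median difference was -3.34 beside 0.0062 over all genes. Without replicate 2, 7 fell, beside 0.121% of all genes, and the median was -3.67. The list's mean log2 signal per mouse was 9.56 to 9.68 in the +/+ mice and 6.07 to 7.66 in the transgenic mice, with the highest value in replicate 2.

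**Figure D2:**
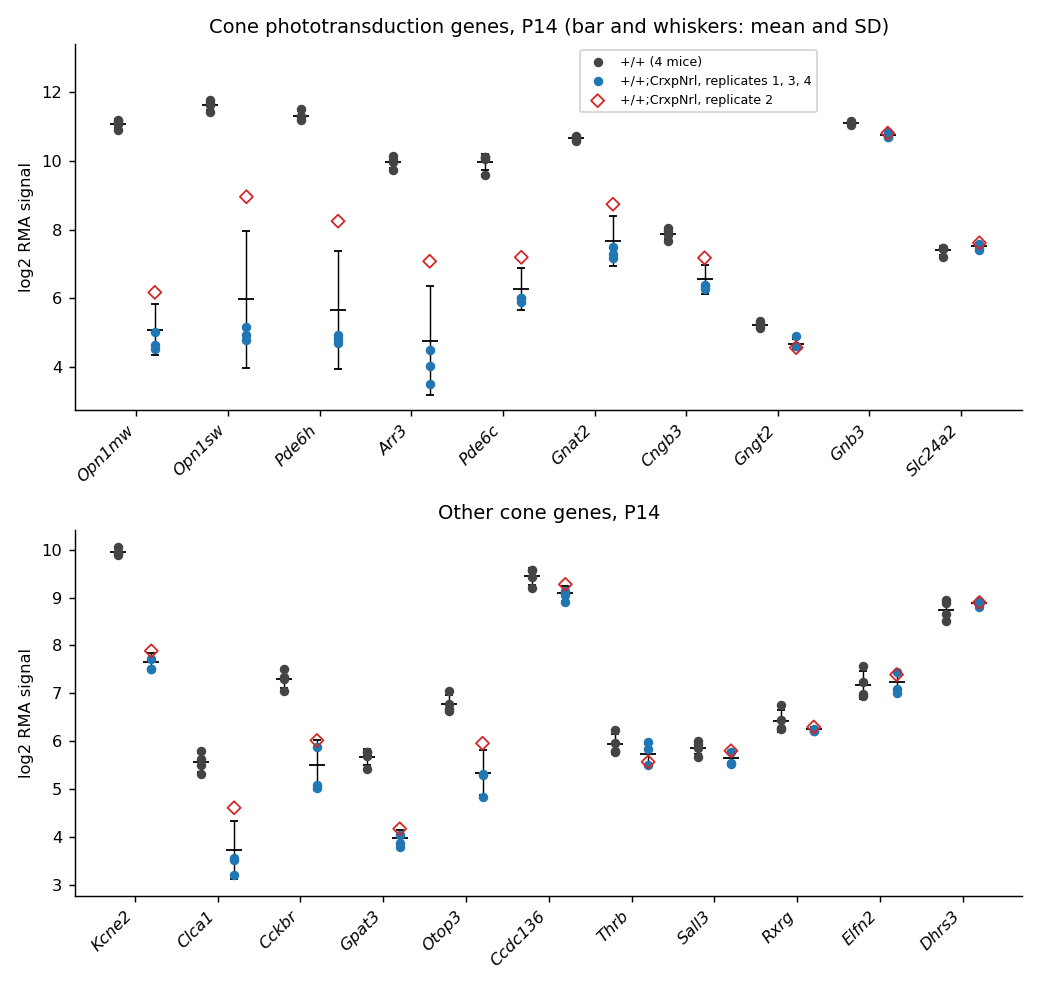
Log2 RMA signals of the measured cone phototransduction genes (upper panel) and of the other cone genes (lower panel) are plotted for each P14 mouse, ordered by difference, with bars and whiskers for the mean and SD of each group of 4. Transgenic replicate 2 (open diamonds) lies above the other 3 transgenic mice for Opn1sw (8.96), Pde6h (8.25) and Arr3 (7.08), and the genes on the right of each panel overlap or nearly overlap between the groups.

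Among the other cone genes, 4 of 11 fell and 0 rose, beside 0.11% and 0.0165% of all genes, with a median difference of -0.35. In 5 the groups did not overlap, the transgenic mice being lower, as in 2.64% of all genes. This list too was chosen with earlier results of these data known, so its shares are a description. Kcne2, an accessory subunit of potassium channels, read 9.95, 10.06, 9.89 and 9.92 in the +/+ mice, against 7.72, 7.89, 7.50 and 7.52 in the transgenic mice. It fell by 2.30 ± 0.10 (adjusted p = 1.25e-15), and here all 4 transgenic mice lay close together, with an SD of 0.18 against 0.075 in the +/+ mice. Cckbr, a cholecystokinin receptor, read 7.06, 7.34, 7.29 and 7.50 in the +/+ mice, against 5.02, 6.02, 5.88 and 5.08 in the transgenic mice. Transgenic replicates 2 and 3 lay above replicates 1 and 4, and the gene fell by 1.80 ± 0.24 (adjusted p = 8.72e-05). Its dimmer second probe set differed by -1.15.

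Clca1, of the family of calcium-activated chloride channel regulators, and Gpat3, an enzyme of triglyceride synthesis, ended near the floor of the arrays. Clca1 read 5.50, 5.63, 5.79 and 5.31 in the +/+ mice, against 3.21, 4.61, 3.56 and 3.53 in the transgenic mice, and fell by 1.83 ± 0.22 (adjusted p = 9.45e-06). Its second probe set, near the floor at a mean of 3.05 in the +/+ mice already, differed by only -0.12. Gpat3 read 5.42, 5.78, 5.77 and 5.69 against 3.79, 4.17, 3.88 and 4.03 and fell by 1.70 ± 0.17 (adjusted p = 4.18e-07). The transgenic means of 3.73 and 3.97 lay below the highest lower quartile of the 8 arrays (4.05), so the sizes of these falls are lower bounds.

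Otop3, a proton channel gene, lay at the edge of the test. It read 6.63, 6.77, 6.67 and 7.05 in the +/+ mice, against 5.29, 5.96, 5.31 and 4.83 in the transgenic mice, with no overlap. Its difference was -1.43 ± 0.31 (adjusted p = 0.0597) with all mice and -1.64 ± 0.33 (adjusted p = 0.0279) without replicate 2. Leaving out that mouse brought the list to 5 of 11, beside 0.121% of all genes. Thyroid hormone receptor beta (Thrb), retinoid X receptor gamma (Rxrg) and Sall3, transcription factors of cones, did not pass, at -0.22 ± 0.19, -0.18 ± 0.13 and -0.21 ± 0.12. Ccdc136 (-0.35 ± 0.093, adjusted p = 0.208), Dhrs3 (0.13 ± 0.11) and Elfn2 (0.054 ± 0.13) did not pass either, and the 95% interval of Elfn2, -0.21 to 0.32, leaves out a 2-fold change.

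The 4 genes outside the cone lists were chosen by the same thresholds. Tecrl, an endoplasmic reticulum protein, read 5.70, 6.15, 5.79 and 5.55 in the +/+ mice, against 4.40, 4.17, 4.32 and 4.00 in the transgenic mice, and fell by 1.57 ± 0.14 (adjusted p = 4.34e-08). Ccl9, a chemokine gene, read 6.17, 5.84, 6.02 and 5.56 against 4.72, 4.39, 4.53 and 4.60 and fell by 1.34 ± 0.25 (adjusted p = 0.0116). The dimmer second probe set of Ccl9 differed by -0.97. In Tecrl and Ccl9 transgenic replicate 2 lay among or below the other transgenic mice. Klhl4, of the kelch-like family, read 6.67, 6.80, 6.16 and 6.26 against 5.44, 5.74, 5.14 and 5.21 and fell by 1.09 ± 0.15 (adjusted p = 0.000102). Its second probe set, near the floor at a mean of 2.89 in the +/+ mice already, differed by only -0.20. Gzmm, a serine protease of the granzyme family, read 8.03, 7.74, 8.03 and 8.15 against 6.86, 7.20, 6.97 and 6.64 and fell by 1.07 ± 0.19 (adjusted p = 0.00456). In these 2 genes replicate 2 was the highest transgenic mouse. Markers of microglia and macrophages gave 0 passing genes of 12, with a median difference of 0.022. Their mean level was 5.62 to 5.71 in the +/+ mice and 5.60 to 5.78 in the transgenic mice. Which cells the transcripts of Tecrl, Ccl9, Klhl4 and Gzmm came from was not tested.

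Read as the share of signal left, the 15 genes differed widely in transgenic replicates 1, 3 and 4. Opn1sw kept 0.884% to 1.15% of the +/+ mean signal in those mice, Pde6h 1.02% to 1.2%, Opn1mw 1.07% to 1.52% and Arr3 1.14% to 2.25%. Pde6c kept 5.94% to 6.49% and Gnat2 8.86% to 11.1%. Cngb3 kept 32.7% to 35.9%, Ccl9 38.7% to 44.2% and Gzmm 39.2% to 49.4%. These shares are of array signal, which has a floor, so the smallest are upper bounds on the transcript that was left.

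Replicate 2 kept more signal in 13 of the 15 genes, by very unequal amounts. It kept 15.7% for Opn1sw, 13.5% for Arr3 and 11.9% for Pde6h, but 3.34% for Opn1mw, so the short-wavelength opsin was further above its group than the medium-wavelength opsin. It kept 14.7% for Pde6c, 26.4% for Gnat2, 51.8% for Clca1 and 61.4% for Cngb3. For Kcne2 (23.8% against 18.2% to 21.3%) and Gpat3 (35.5% against 27.2% to 32.3%) it lay only just above the other transgenic mice, and for Tecrl (32.3% against 28.8% to 38%) it lay among them. It was the lowest for Ccl9 (35.1%). Leaving it out made 13 of the 15 differences larger, those other than Tecrl and Ccl9.

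**Figure D3:**
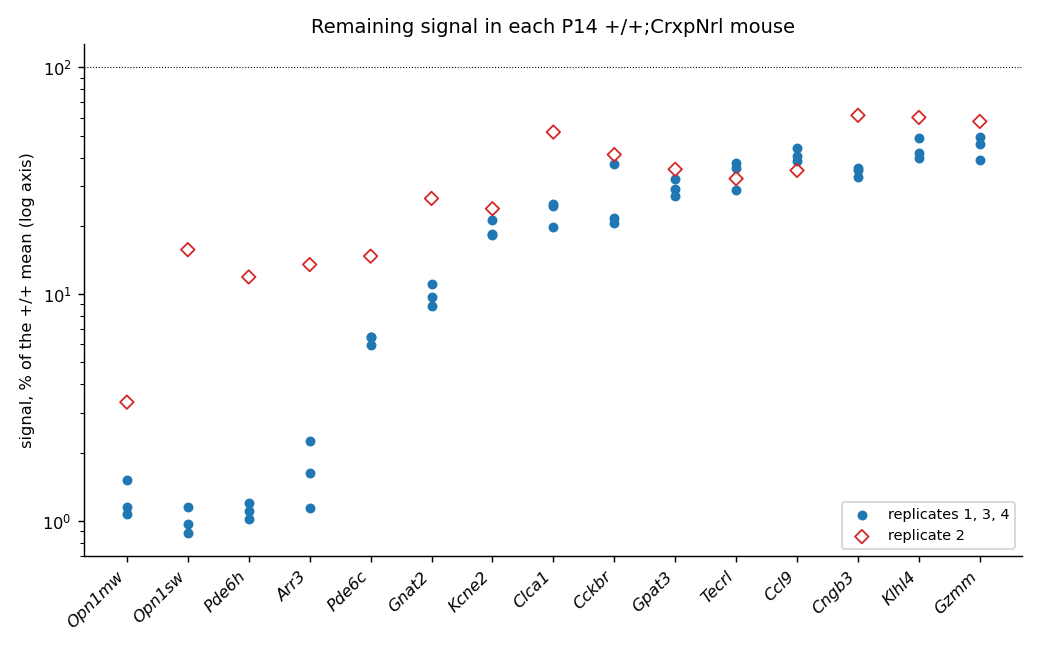
The signal of each transgenic P14 mouse is plotted as a percent of the mean signal of the 4 +/+ mice, on a log axis, for the 15 genes that fell at least 2-fold. Replicates 1, 3 and 4 (filled points) lie near 1% for Opn1sw, Pde6h and Opn1mw and from 32.7% to 35.9% for Cngb3, and replicate 2 (open diamonds) lies above them in 13 genes and not in Tecrl and Ccl9.

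Smaller changes passed the test in 8 further genes. Ndufs5, a subunit of mitochondrial complex I, read 11.04 to 11.14 in the +/+ mice and 10.50 to 10.62 in the transgenic mice and fell by 0.53 ± 0.071 (adjusted p = 6.28e-05). Wwc1, a scaffold of the Hippo pathway, fell by 0.71 ± 0.14, Mpp6, a membrane-associated guanylate kinase, by 0.68 ± 0.14, Pnp, purine nucleoside phosphorylase, by 0.55 ± 0.10 and Casq2, a calcium-binding protein, by 0.48 ± 0.10. Mef2b, a MADS-box transcription factor, rose by 0.69 ± 0.14, Kifc3, a kinesin, by 0.54 ± 0.11 and Eri3, an exoribonuclease, by 0.36 ± 0.073. The adjusted p of these 7 genes lay between 0.0129 and 0.0474, and each lost its call in at least 4 of the 8 fits that left out 1 P14 mouse. Without replicate 2, Mef2b (adjusted p = 0.0983) and Casq2 (0.153) did not pass.

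No rod gene passed the test. Of 11 measured rod phototransduction genes 0 passed in the limma fit, with a median difference of 0.077. Gnat1, the rod transducin alpha subunit, read 13.79 to 13.87 in the +/+ mice and 13.88 to 13.96 in the transgenic mice, a difference of 0.069 ± 0.51. Gnat1, Sag, the rod arrestin (14.01 to 14.16 over the 8 mice), and Pde6g, the rod phosphodiesterase inhibitor (13.37 to 13.56), lay near the array maxima of 14.1 to 14.2, where a rise may not show. Gnb1, the rod transducin beta subunit, had the largest difference (0.69 ± 0.35, adjusted p = 0.713), with +/+ replicates 1 and 4 at 11.50 and 12.05 and the other 6 mice at 12.63 to 13.04. The 95% intervals of the 11 genes ran from -0.97 at the lowest to 1.45 at the highest.

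Nrl itself was read by 1 probe set, at 13.31 to 13.33 in the +/+ mice and at 13.33, 13.26, 12.89 and 13.35 in the transgenic mice. The difference was -0.11 ± 0.40 (adjusted p = 0.987). These levels are near the top of the array's range, and the labels do not say which part of Nrl the transgene carries, so the probe set does not check the transgene. None of the 17 measured photoreceptor transcription factors passed, with a median difference of 0.013: Crx (0.013 ± 0.16), Otx2 (0.11 ± 0.090), Rorb (-0.30 ± 0.19), Neurod1 (0.10 ± 0.15) and Prdm1 (0.15 ± 0.24) were among them, and Mef2c had the largest difference (0.52 ± 0.33).

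The gene with the fifth largest difference, Prph2, a structural protein of the outer segment discs of rods and cones, did not pass. It read 7.32, 12.50, 12.61 and 12.71 in the +/+ mice, against 6.46, 6.66, 6.75 and 6.55 in the transgenic mice. Replicate 1 of the +/+ mice thus lay near the transgenic mice and far below the other +/+ mice. The difference was -4.68 ± 1.29 (adjusted p = 0.227), and -6.00 (adjusted p = 0.0407) without +/+ replicate 1. At P28 the order was the opposite by value, with 6.66 to 8.86 in the +/+ mice and 9.10 to 12.78 in the transgenic mice. The other measured genes of the outer segment and cilium did not pass, and their list had a median difference of 0.090.

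**Figure D4:**
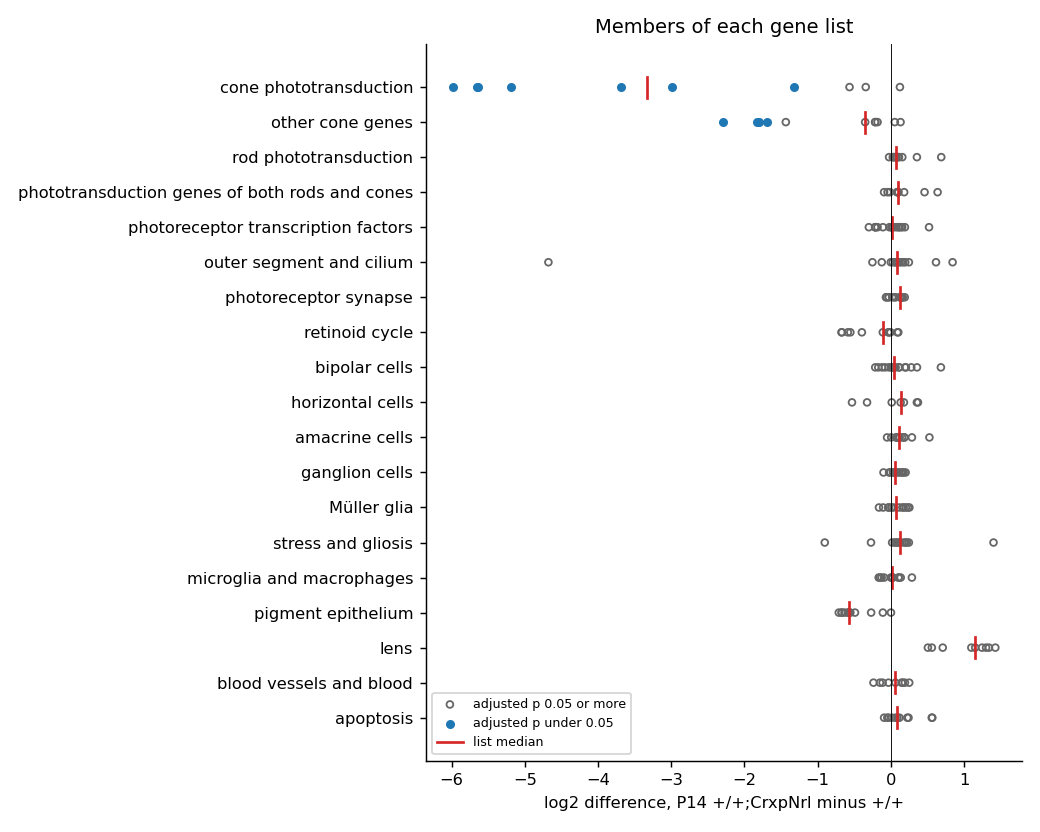
The log2 difference between P14 +/+;CrxpNrl and +/+ retinas is plotted for each measured member of 19 gene lists, with a red bar at the list median. Members with an adjusted p under 0.05 (filled) occur in the lists of cone phototransduction and other cone genes, with medians of -3.34 and -0.35, while the lens and pigment epithelium lists are shifted to 1.15 and -0.57 without any member passing.

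In the other 15 lists, which cover the phototransduction genes shared by rods and cones, the outer segment, the synapse, the retinoid cycle, the other retinal cell types, gliosis, microglia, pigment epithelium, lens, vessels and apoptosis, 0 genes passed in the limma fit. Medians of the bipolar, horizontal, amacrine, ganglion and Müller glia lists lay between 0.043 and 0.13. Casp9, an initiator caspase, differed most among the apoptosis genes, at 6.82 to 6.98 in the +/+ mice and 7.29 to 7.63 in the transgenic mice (0.57 ± 0.23, adjusted p = 0.584, or 0.032 where only the compared groups were fitted). Horizontal cell genes Onecut1 (-0.53 ± 0.25) and Calb1 (-0.33 ± 0.15) were lower and Lhx1 (0.37 ± 0.17) and Tpm3 (0.36 ± 0.11) higher by value, none of them passing.

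Among stress and gliosis genes, Serpina3n, an acute-phase protease inhibitor of reactive glia, read 4.77, 4.71, 5.00 and 4.58 in the +/+ mice, against 6.64, 4.64, 6.62 and 6.77 in the transgenic mice. Transgenic replicate 2 lay at the +/+ level and the other 3 well above it. The difference did not pass with all mice (1.40 ± 0.47, adjusted p = 0.423) or without replicate 2 (1.91 ± 0.45, adjusted p = 0.12). Socs3, a feedback inhibitor of cytokine signalling, read 5.72, 5.83, 5.61 and 5.77 against 4.68, 5.55, 4.69 and 4.40. It showed the same arrangement downwards, at -0.90 ± 0.24 (adjusted p = 0.216) with all mice and -1.14 (adjusted p = 0.0405) without replicate 2. Gfap, the intermediate filament of reactive glia, read 6.33 to 6.64 against 6.36 to 7.27, a difference of 0.25 ± 0.23.

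Lens and pigment epithelium transcripts, which come from tissues next to the retina, differed between the groups without passing the test. All 9 measured lens genes were higher by value in the transgenic mice, with a median of 1.15 and a smallest adjusted p of 0.871, and 6 of them had groups that did not overlap with the transgenic mice higher, as 565 of all genes had (3.11%). The lens list mean was 6.31 to 7.07 in the +/+ mice and 7.35 to 8.69 in the transgenic mice, highest in transgenic replicate 4. The test takes its spread from all 8 groups. For the lens gene Cryaa the SD was 0.48 in P14 +/+ mice, 0.62 in P28 +/+;CrxpNrl mice and 4.26 in P28 Rorb-/- mice. Of 12 pigment epithelium genes 11 were lower by value, with a median of -0.57 and a smallest adjusted p of 0.637, and the list mean was 7.33 to 7.76 in the +/+ mice and 6.58 to 7.68 in the transgenic mice. The part of these transcripts in the cone results was not tested. No cone gene is on either list.

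The same transgene at P28 gave values for other mice. At P28, 21 genes fell at least 2-fold (0.115%) and 0 rose (0%), and all 15 of the P14 genes were among them, which is 100% of the P14 set and 71.4% of the P28 set. The 6 genes called at P28 alone were Otop3, Erich6, Qsox1, Gckr, Gulo and Gngt2, and each was lower by value at P14 too. By adjusted p alone, 9 of 10 cone phototransduction genes and 6 of 11 other cone genes fell at P28, against 0.198% of all genes. Gnb3, for example, fell by 0.82 ± 0.082 at P28, and Gngt2 fell by 1.07 ± 0.23.

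At P28 the transgenic mice were close to each other in the genes that set P14 replicate 2 apart. Opn1sw read 4.90, 5.24 and 4.51 in the 3 transgenic P28 mice and 12.03 to 12.44 in the +/+ mice, and fell by 7.35 ± 0.60. Pde6h read 4.80, 4.57 and 4.97 against 11.02 to 11.57 and fell by 6.59 ± 0.53. Arr3 read 4.33, 4.48 and 4.44 against 11.12 to 11.28 and fell by 6.79 ± 0.47. The change of the transgene difference from P14 to P28 was -1.70 for Opn1sw (95% interval -3.39 to -0.015), -1.60 for Arr3 (-2.90 to -0.29) and -0.95 for Pde6h (-2.42 to 0.52). None passed after adjustment (0.963, 0.865 and 0.999), and without P14 replicate 2 these changes were -0.70, -0.83 and -0.090. Over all genes the difference between the ages passed for 0 genes (0%) in the limma fit, with a smallest adjusted p of 0.123 and 938 genes at an unadjusted p under 0.05.

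**Figure D5:**
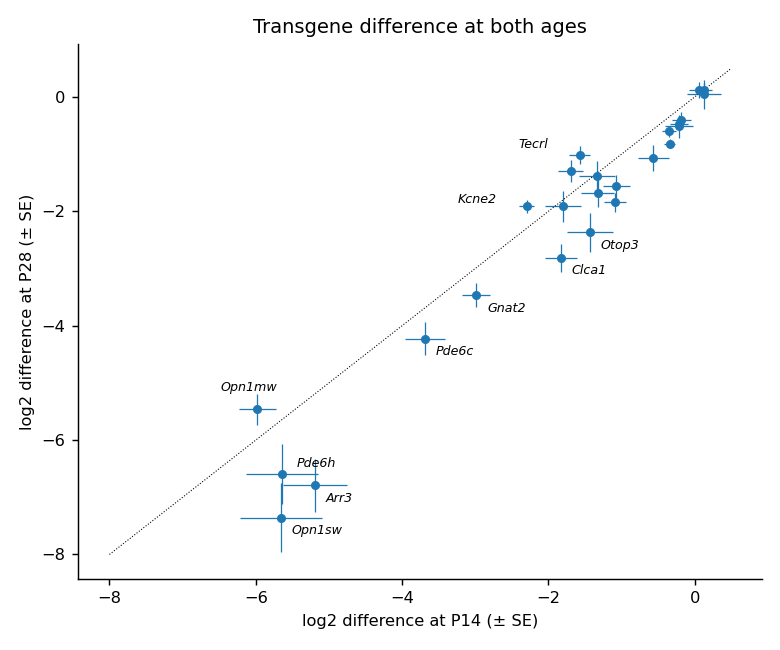
The log2 difference with the transgene at P28 (vertical axis) is plotted against that at P14 (horizontal axis) for the measured cone genes and the 4 other genes that fell at least 2-fold, with SE bars and a dotted line of equality. The points follow the line, with Opn1sw (-7.35 at P28, -5.65 at P14) and Arr3 (-6.79, -5.19) furthest below it, and no gene passed the test of a change between the ages.

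In P14 retinas without Rorb the transgene was compared in a further 8 mice, none of them shared with the comparison in +/+. Of the 15 genes, 14 fell there with the transgene (3.25% of all genes fell), all but Tecrl, which read 3.38 to 3.57 in Rorb-/- mice, below the lower quartile of the arrays, and 3.25 to 3.48 in Rorb-/-;CrxpNrl mice. The difference itself differed between the genotypes in 3 of the 15 (1.47% of all genes in either direction). Clca1 fell by 3.75 ± 0.22 in Rorb-/- and by 1.83 ± 0.22 in +/+ (difference of the differences -1.92 ± 0.31, adjusted p = 4e-04). Gpat3 fell by 2.82 ± 0.17 and by 1.70 ± 0.17 (-1.12 ± 0.25, adjusted p = 0.0129). In both genes the transgenic +/+ mice were near the floor of the arrays, which bounds the fall in +/+. Tecrl, the third, was already at the floor in Rorb-/- mice and could not fall there, so its passing shows no smaller effect of the transgene.

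For the opsins and Cngb3 no such difference passed. Opn1mw fell by 6.33 ± 0.25 and by 5.98 ± 0.25 (adjusted p = 0.838 for the difference) and Opn1sw by 5.53 ± 0.56 and by 5.65 ± 0.56 (adjusted p = 0.984). Without replicate 2 of the transgenic +/+ group the Opn1sw difference of the differences was 1.12 (adjusted p = 0.379). Cngb3 fell by 1.34 ± 0.22 and by 1.33 ± 0.22 (adjusted p = 0.994). Pde6h and Arr3 fell by less in Rorb-/-, by 3.63 ± 0.49 and by 3.13 ± 0.43, and with all mice the differences from +/+ were 2.02 ± 0.69 (adjusted p = 0.2) and 2.06 ± 0.61 (adjusted p = 0.107). They passed without replicate 2 (2.87, adjusted p = 0.000139, and 2.83, adjusted p = 2.2e-05). For Arr3 the direction depended on the probe set: without probe sets of shared sequence another one stood for the gene, and the difference turned to -1.51 and passed (adjusted p = 0.00517). Gnat2 fell by 4.00 ± 0.19 in Rorb-/- and by 2.99 ± 0.19 in +/+, a difference of -1.01 ± 0.27 that did not pass (adjusted p = 0.0598). It did pass in 9 alternatives, at -1.18 to -0.66 (adjusted p 0.0173 to 0.0481), and without replicate 2 it was -0.66 (adjusted p = 0.0216).

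The starting levels differed as well. Against the same +/+ mice, Rorb-/- mice without the transgene were higher in 13 of the 15 genes (16% of all genes rose) and lower in 1, Tecrl (13.9% fell), by 4.37 ± 0.22 for Clca1, 2.94 ± 0.17 for Gpat3 and -2.31 ± 0.14 for Tecrl. This comparison shares the +/+ mice with that of the transgene, so the values are set side by side only. In transgenic Rorb-/- mice Cngb3 still read 9.44 to 9.97, above the 7.67 to 8.05 of +/+ mice without the transgene, while Opn1mw read 3.92 to 5.14, beside 4.54 to 6.18 in transgenic +/+ mice.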

How the data were processed

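Messenger RNA of both retinas of each mouse was measured on Affymetrix mouse arrays, 5 ug of total RNA being labelled per array per the labels' protocols. The deposited values are on a log2 scale, 1 per probe set and array, and were made by the authors with RMA per the submitters' processing notes, with the version not given in the sources used here. They were used as deposited. RMA scales the arrays together and compresses low signals, so falls that end near the floor are understated. Precision is limited by the number of arrays.

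The platform annotation named 1 gene for 34958 of the 45101 probe sets, several for 932 and none for 9211. Without 64 control probe sets, 34945 with 1 symbol were used, of which 34741 matched a RefSeq gene by identifier. Each of 18193 genes was read by its brightest probe set, judged over all arrays. All 31 arrays of the 8 groups entered a limma fit (limma 3.58.1, R 4.3.3, data.table of version 1.17.8) with a mean for each group and a prior variance that follows the signal level. P-values were adjusted by the Benjamini-Hochberg method over all genes. Nothing in the labels says that mice of a group came from separate litters, so p-values measure only the spread between mice within a group. That spread was taken over all 8 groups and not from the compared mice alone. A gene that varied widely in another genotype or age therefore has a wide SE at P14 too.

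The comparison, the 19 gene lists and the genes named were chosen with earlier results of these data known. The genes named are those past adjusted p 0.05 and 2-fold, up to 10 smaller changes each way, the members of the cone, rod and transcription factor lists, and up to 4 members of each other list with the largest differences. Sex-linked genes and unnamed transcripts were left out, and fewer could be named. The genes called at P28 only, the counts of cone genes under the alternatives and the positions of transgenic replicate 2 in Serpina3n and Socs3 were chosen after their values were seen.

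Whether equal replicate numbers pair the mice was checked by correlating their deviations from the group means. The pairs gave 0.22, 0.061, 0.23 and 0.0089 at P14, where replicates 1 and 3 correlated best with the mouse of equal number and replicates 2 and 4 did not. At P28 they gave 0.25, 0.37 and 0.21, each best with its own number, a pairing inferred from the values and not stated in the labels. No block was used in the main fit at either age, so the P28 values and the test between the ages ignore this pairing. A replicate block was among the alternatives. The alternatives were quantile normalization, a common array median, averaging a gene's probe sets, dropping probe sets with shared sequence, dropping the dimmest 40% of genes, any fold, a variance without trend, array weights, a replicate block, only the compared groups, Xist above or below its midpoint as a covariate, and each mouse left out in turn. The P14 comparison was tested on simulated data, 200 of 18193 genes being changed, under independent normal noise of equal spread. It called 97% of those set 1.5 log2 apart and 100% of those set 2.5 log2 apart and made 0 false calls. In the data 23 genes passed, fewer than the 200 changed in the simulation, so these shares may not carry over. Promoter windows came from a RefSeq file of build GRCm38.p6 and were searched with Python 3.11.15 and pandas 2.3.3. Figures were drawn with matplotlib 3.10.9.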

Additional observations from a re-analysis of the deposited data

Results flagged for a closer look

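Each of 58 genes was screened in both P14 groups, 116 groups of 4 mice in all, for a mouse whose gap to its nearest neighbour passed Dixon's 95% limit for the group's range, and 7 values did. Chance alone flags about 1 in 20 groups, which over this many groups is near the number found, so the count shows nothing by itself. Transgenic replicate 2 was already known to keep cone signal, so its cone values are a description: Opn1sw (8.96, next mouse 5.18), Pde6h (8.25, next 4.93), Pde6c (7.198, next 6.02) and Cngb3 (7.18, next 6.41) were high. Its Neurod1 was low (12.45, next 12.73). In the +/+ group, Pde6c of replicate 3 was low (9.60, next 10.05) and Mpp6 of replicate 1 was high (8.39, next 8.08).

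The transgene difference at P14 differed between Rorb-/- and +/+ retinas, by the limma interaction term, for 5 of the 23 genes that passed in +/+, beside 1.47% of all genes. The difference in Rorb-/- minus that in +/+ was -1.92 for Clca1, -1.12 for Gpat3, -1.07 for Wwc1, and -1.12 for Mpp6, with adjusted p of 4e-04, 0.0129, 0.00189 and 0.00133. Transgenic +/+ mice were near the floor of the arrays for Clca1 and Gpat3, which bounds their fall in +/+. Tecrl, at 1.49, was at the floor in Rorb-/- mice and could not fall there. What set these genes apart was not tested.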

How the results depend on the processing

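The P14 count of 15 genes stayed between 12 and 19 under every alternative except without the fold requirement, where it was 23. Leaving out each P14 mouse in turn gave 14 to 17, the replicate block 17, and array weights 19, of which 1 was higher. The P28 count of 21 became 40 without the fold requirement, 21 with the replicate block and 14 to 20 with a mouse left out. The count of genes that differed between the ages was 0, also with the replicate block, and 0 to 2 with a mouse left out: 1 without P14 +/+ replicate 1, 2 without P28 +/+ replicate 2 and 1 without P28 +/+;CrxpNrl replicate 2. Of the 15 genes, 14 stayed past adjusted p 0.05 under every alternative that still tested them, and Ccl9 did not in 4 (adjusted p 0.0503 to 0.0593). Of the 8 smaller changes 1, that of Ndufs5, did. Without probe sets of shared sequence the Arr3 interaction with Rorb reversed to -1.51 (adjusted p = 0.00517) and Eri3 to -0.020 (adjusted p = 0.99), each then read by another probe set. Where only the compared groups were fitted, Casp9 (adjusted p = 0.032), Abca4 (0.0374), Gnb3 and Otop3 passed. Gnb3 passed in 3 alternatives (adjusted p 0.00336 to 0.0499) and Otop3 in 5 (0.00159 to 0.0499). With array weights Ccdc136 (adjusted p = 0.0482) and Prph2 passed too. The replicate block brought Otop3 and Socs3 past the test and ended no call among the 15. Cone phototransduction genes that fell numbered 6 to 8 and other cone genes 3 to 6, in alternatives chosen after seeing the data. The main fit gave 7 and 4, beside 0.11% of all genes, and the counts under the alternatives are descriptions. Low signal limits the falls of Clca1 and Gpat3, and signal near the array maximum limits Nrl and the rod genes.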
